A study of Homo sapiens with 16 samples.

Results

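The comparison described here asked what the EZH2 inhibitor GSK126 changed in leukaemia cells that also received the DOT1L inhibitor EPZ5676. It set 4 libraries of cells given both inhibitors (Combo) against 4 libraries of cells given EPZ5676 alone (iDOT1L), over all genes of the deposited expression table, and thus used 8 of the 16 libraries of the series. Combo cells received 0.16 uM EPZ5676 and 0.3 uM GSK126, and iDOT1L cells received 0.16 uM EPZ5676. The other 8 libraries were 4 of cells given 0.3 uM GSK126 alone (iEZH2) and 4 of cells given the solvent (DMSO). All groups were Molm14 cells, a human line of acute myeloid leukaemia in which KMT2A is rearranged, treated for 7 days with medium and compound renewed on day 4, by the series' design text. The extraction protocol in the labels instead places RNA isolation 3 days after a sort, and the sources used here do not settle which applied. Molm14 is 1 cell line, and the labels do not say whether the 4 libraries of a group came from separate cultures, so p-values reflect just how these libraries spread. RNA was read as paired-end mRNA-seq.

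EZH2 is the main catalytic subunit of Polycomb repressive complex PRC2, which trimethylates histone H3 at a lysine in its tail. That mark is known for keeping developmental regulators and other lineage genes silent, mostly at promoters rich in CpG dinucleotides. DOT1L methylates a lysine in the core of histone H3 along transcribed genes and is recruited by KMT2A fusion proteins, which sustain HOXA genes, MEIS1 and MEF2C in such leukaemias. GSK126 and EPZ5676 are inhibitors of the methyltransferase activity of EZH2 and DOT1L and are not directed at their messenger RNAs.

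Values below are normalised counts, on a scale shared by the 16 libraries, with an estimated depth of 20700000 to 27400000 reads per library. Of 22445 gene IDs in the table, 22331 passed a filter on low values and were tested. The cells carried myeloid markers in all libraries, with summed primary granule markers (MPO, ELANE, PRTN3 and AZU1) of 28817 to 31057 in Combo and 22028 to 29348 in iDOT1L. Of 8 monocyte markers, LYZ made up most of the sum, which was 15311 to 25289 in Combo and 11938 to 15544 in iDOT1L, and CD14, a defining monocyte marker, was at 0 to 3.72 in Combo and 3.04 to 6.92 in iDOT1L. The library iDOT1L 1 stood apart from the other iDOT1L libraries on the first principal component of 13763 genes. It lay at -2.24, against 8.67 to 11.7 for the other 3, while the Combo libraries lay at 24.4 to 31.8. Library 1 was also the lowest of iEZH2, at -19.3 against -9.65 to 10.6. In DMSO it was the lowest too, at -34.4 against -29.8 to -28.2, but in Combo it was not. In bulk RNA such as this, fewer cells of one kind and less of an RNA per cell cannot be told apart.

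The number of genes called to change on addition of GSK126 to EPZ5676 depended on the fit. With the replicate number as a block, 843 were higher in Combo and 1397 lower. In limma's test without the block, which is reported below, 577 of the 22331 genes passed an adjusted p of 0.05 (2.58%). Of them, 247 were higher in Combo (1.11%) and 330 were lower (1.48%). Of these IDs 14 repeated the values of another called ID in all libraries, as alternative entries of the same gene. All called genes together ran from a log2 fold change of -3.44 to 5.73. The 247 risen genes changed more, with a median log2 fold change of 0.86, than the 330 fallen genes, with a median of -0.55. A change of 2-fold or more was seen in 95 risen genes (38.5%) and 39 fallen genes (11.8%).

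Risen and fallen genes also differed in how strongly control cells expressed them. The median level in DMSO was 123 normalised counts for risen genes and 1574 for fallen genes, against 95.3 for all genes tested. Under 100 normalised counts in DMSO lay 46.2% of the risen and 6.36% of the fallen genes, against 50.3% of all genes tested. Low genes need a larger fold change to pass the test, so that sizes of change and levels are not independent. The 4 Combo and 4 iDOT1L libraries did not overlap for 240 of the 247 risen and 314 of the 330 fallen genes, a separation that 10.4% of all genes tested showed.

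How many genes passed depended on single libraries, as the plot of calls by processing shows. Without iDOT1L 1 the test called 122 genes higher and 77 lower. It called 151 higher and 223 lower without Combo 1, 137 and 118 without Combo 3, 148 and 124 without Combo 4, 145 and 143 without iDOT1L 3, and 175 and 202 without iDOT1L 4. In all 8 fits without 1 library, 174 of the 577 genes were called, 103 higher and 71 lower. Among the fallen genes, iDOT1L 1 was the highest iDOT1L library for 72.1%, against 31.6% of genes with a mean level of at least 20, and among the risen genes it was the lowest for 45.7%, against 34.6%. The part of this library in the results was not tested beyond the fits without it. With quantile normalisation 291 genes were higher and 252 lower, so that 53.6% of the calls were rises, against 42.8% on the authors' scale.

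**Figure D1:**
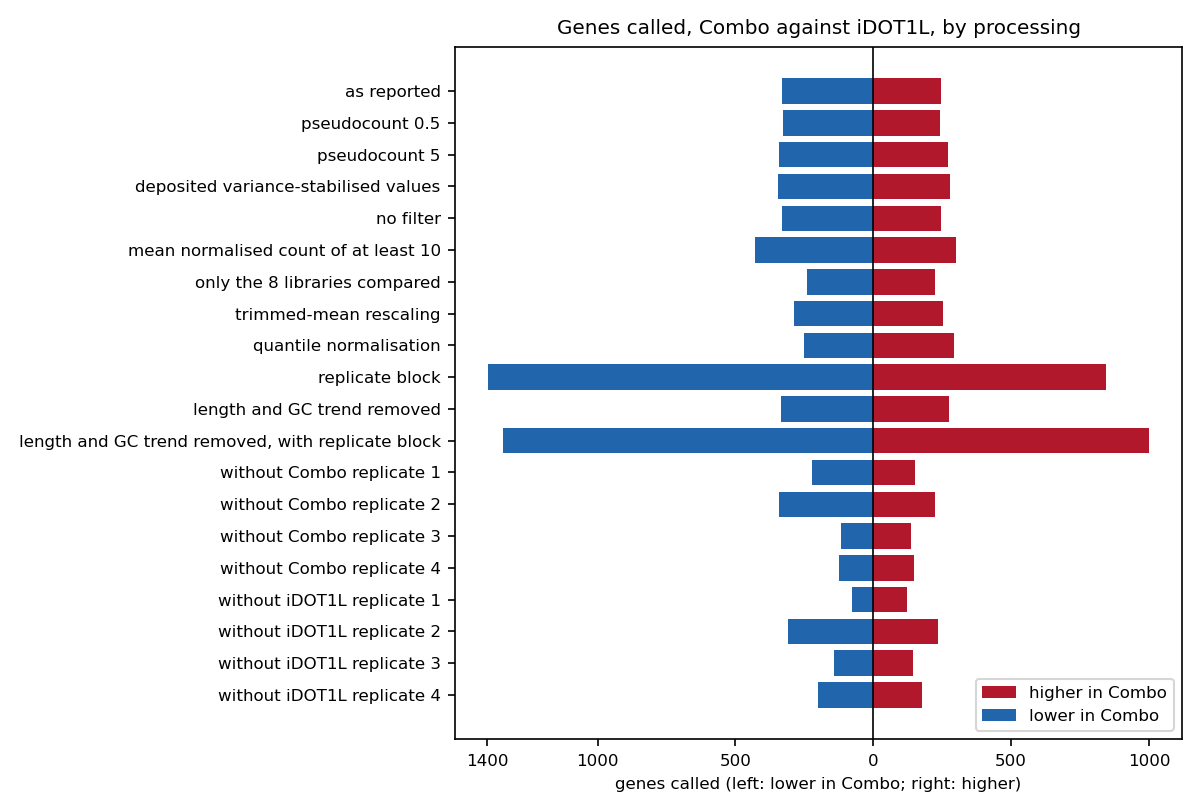
Number of genes called in Combo against iDOT1L (adjusted p under 0.05; lower in Combo to the left, higher to the right) for the reported setting and for each alternative, from 199 genes called without iDOT1L 1 to 2345 with the length and GC trend removed and the replicate number as a block. The reported setting called 247 higher and 330 lower.

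The messenger RNAs of the drugs' targets themselves did not pass the test in the fit without a replicate block. EZH2 stood at 1831, 2028, 2106 and 2135 normalised counts in Combo and 1340, 1987, 1834 and 1839 in iDOT1L. Its log2 fold change was 0.22 ± 0.12 (adjusted p = 0.377), and with the replicate number as a block it passed (adjusted p = 0.0307). EZH1, the other catalytic subunit of PRC2, averaged 638 ± 70 in Combo and 615 ± 36.3 in iDOT1L (SD, n = 4 each), with a log2 fold change of 0.05 ± 0.13 (adjusted p = 0.902). DOT1L averaged 5906 ± 1120 in Combo and 6500 ± 861 in iDOT1L, with a log2 fold change of -0.15 ± 0.12 (adjusted p = 0.558). Without the block, limma called none of the 13 PRC2 subunits and cofactors and none of the 12 members of the DOT1L and super elongation complexes. Their median log2 fold changes were -0.04 and -0.16, against 0.01 over all genes tested. At an unadjusted p under 0.05, which 7.63% of all genes tested met with a higher and 9.01% with a lower level in Combo, 1 PRC2 gene was higher and 2 lower, and 0 DOT1L complex genes were higher and 3 lower.

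Developmental transcription factors that PRC2 is known to mark in many cell types were among the genes that rose. Of 72 listed regulators 51 were tested, and 6 of them rose and 1 fell, with a median log2 fold change of 0.45 and a positive sign in 40 of 51. These shares, 11.8% higher and 1.96% lower, stand against 1.11% and 1.48% of all genes tested. The members that rose were TWIST1, POU4F1, POU3F2, HOXB9, HOXC10 and NEUROG2, and the member that fell was DLX2. Without single libraries 4 to 6 rises were called, the lowest without Combo 3, Combo 4, iDOT1L 1 or iDOT1L 4.

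TWIST1, a basic helix-loop-helix factor of mesenchyme and neural crest, stood at 271, 185, 279 and 287 normalised counts in Combo, against 42.4, 64.5, 63.5 and 63.9 in iDOT1L. Every Combo library was more than 2-fold above every iDOT1L library, Combo 2 being the lowest of its group and iDOT1L 1 the lowest of its own. The log2 fold change was 2.11 ± 0.21 (adjusted p = 8.83e-05), and it ranged from 1.96 to 2.25 in the fits without 1 library. POU4F1, a POU homeobox factor of sensory neurons that is also expressed in some myeloid leukaemias, had 642, 563, 620.2 and 632 in Combo and 340.4, 402, 392 and 387 in iDOT1L. Its groups did not overlap, and the log2 fold change was 0.69 ± 0.10 (adjusted p = 0.00174), but other genes contain 27.2% of its 31-base words, which makes its counts uncertain. The neural POU factor POU3F2 had 165, 199, 201 and 188 in Combo and 90.1, 103, 118 and 128 in iDOT1L, again without overlap, with a log2 fold change of 0.78 ± 0.14 (adjusted p = 0.0059).

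HOXB9, a posterior homeobox gene, had 81.1, 29.8, 36.8 and 44 normalised counts in Combo and 16.3, 8.52, 11.8 and 10.4 in iDOT1L. The log2 fold change was 1.87 ± 0.28 (adjusted p = 0.00143), and the Combo level was close to that of DMSO, 37.6 ± 2.94, EPZ5676 alone having lowered the gene, with a log2 fold change against DMSO of -1.63 (adjusted p = 0.000924). HOXC10, another posterior homeobox gene, averaged 131 ± 24.5 in Combo and 67.1 ± 14.4 in iDOT1L, a log2 fold change of 0.97 ± 0.23 (adjusted p = 0.0327). NEUROG2, a proneural factor, averaged 19.7 ± 6.22 in Combo and 5.88 ± 3.09 in iDOT1L, a log2 fold change of 1.67 ± 0.40 (adjusted p = 0.0306) at a low level. DLX2, a homeobox gene of forebrain and branchial arches, went the other way, with 69.8 ± 9.31 in Combo, 110.3 ± 18.4 in iDOT1L and a log2 fold change of -0.65 ± 0.16 (adjusted p = 0.0336). PAX6, an eye and brain factor, had 165, 175, 227 and 176 in Combo and 125, 134, 132 and 103 in iDOT1L without overlap, but a log2 fold change of 0.58 ± 0.16 (adjusted p = 0.0669) did not pass. PAX6 passed with a filter of a mean level of at least 10, on the deposited log2 values and with the replicate number as a block (adjusted p = 0.0172). Other genes, mostly ELP4, contain 24.8% of its 31-base words, which makes its counts uncertain.

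**Figure D2:**
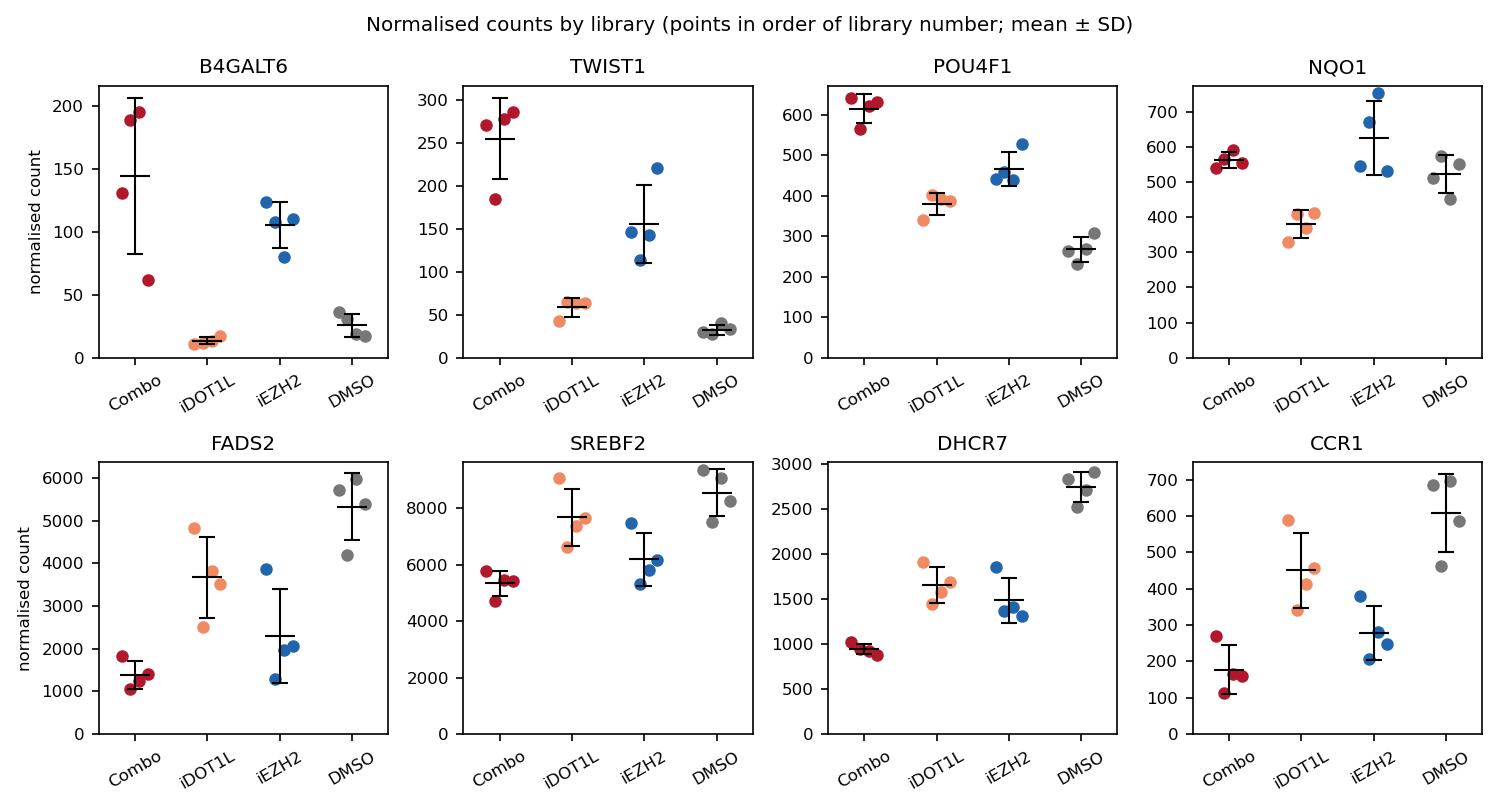
Normalised counts of 8 genes in each library (points, in order of library number) with group mean and SD (bars) for Combo, iDOT1L, iEZH2 and DMSO, 4 libraries each. TWIST1 and B4GALT6 are higher in every Combo library than in every iDOT1L library, while FADS2, SREBF2, DHCR7 and CCR1 are lower in every Combo library.

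The largest rises among protein-coding genes were of genes that iDOT1L cells expressed at low levels. B4GALT6, which adds galactose to make lactosylceramide, had 131, 189, 195 and 62.02 normalised counts in Combo, against 10.7, 12.02, 13.3 and 17.5 in iDOT1L. The lowest Combo library, Combo 4, was still more than 3-fold above the highest iDOT1L library, and the log2 fold change was 3.23 ± 0.32 (adjusted p = 8.83e-05). LUM, which encodes the small leucine-rich proteoglycan lumican, had 92.1, 57.5, 62.95 and 64.8 in Combo and 6.18, 9.20, 7.09 and 4.44 in iDOT1L, a log2 fold change of 3.20 ± 0.47 (adjusted p = 0.00125). DCN, which encodes the related decorin and lies next to LUM on chromosome 12, had 45.4, 31.6, 50.03 and 54.7 in Combo and 13.2, 8.41, 10.03 and 6.31 in iDOT1L, a log2 fold change of 2.16 ± 0.32 (adjusted p = 0.00162). Both proteoglycans are fibroblast genes. Of 6 stromal and endothelial markers, PECAM1, which myeloid cells also express, was called lower, at 1302 to 1940 in Combo and 2002 to 3680 in iDOT1L, and the other 5 were not called. COL1A2 was at 9.71 to 41.2 in Combo and 18.5 to 30.05 in iDOT1L, PDGFRB at 7.90 to 46.1 in Combo and 17.7 to 50.9 in iDOT1L, COL3A1 at 5.48 to 8.82 in Combo and 2.65 to 21.6 in iDOT1L, and the endothelial CDH5 at 0 to 3.30 in Combo and 0.834 to 3.48 in iDOT1L. COL1A1 lay at 170 to 235 in Combo and 97.3 to 207 in iDOT1L.

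LRP4, a receptor of the LDL receptor family that acts at the neuromuscular junction, had 54.2, 12.8, 18.8 and 20 normalised counts in Combo and 4.20, 0.452, 3.03 and 1.99 in iDOT1L. CYTL1, which encodes a small secreted protein, had 35.5, 66.7, 36.7 and 36.7 in Combo and 4.17, 5.03, 4.495 and 12.3 in iDOT1L, and was at 0 to 2.32 in iEZH2 and at 0 in all 4 DMSO libraries. CYTL1 rose with a log2 fold change of 2.65 ± 0.45 (adjusted p = 0.00383) and LRP4 with one of 2.94 ± 0.47 (adjusted p = 0.00285). EPZ5676 alone had lowered LRP4 from 13.1 ± 5.94 in DMSO, with a log2 fold change of -2.06 (adjusted p = 0.00992). It had raised CYTL1, with 2.79 (adjusted p = 0.000575). The axon guidance receptor gene ROBO1 averaged 53.3 ± 24.4 in Combo and 8.89 ± 3.10 in iDOT1L, with a log2 fold change of 2.39 ± 0.46 (adjusted p = 0.0095). MAN1A1, a Golgi mannosidase that trims N-glycans, had 86.96, 70.9, 73.5 and 58.6 in Combo and 18.2, 17.97, 13.6 and 14.6 in iDOT1L, a log2 fold change of 2.10 ± 0.31 (adjusted p = 0.00155). EPB41L5, a membrane-cytoskeleton adaptor, averaged 36.4 ± 16.4 in Combo and 6.64 ± 2.88 in iDOT1L, and TCEAL9 averaged 24.9 ± 11 in Combo and 3.35 ± 1.20 in iDOT1L, with log2 fold changes of 2.25 ± 0.42 (adjusted p = 0.00746) and 2.50 ± 0.51 (adjusted p = 0.0124).

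Of the remaining large rises, some rested on few libraries or on shared sequence. BHLHE22, a neural helix-loop-helix gene, averaged 43.04 ± 11.8 in Combo and 6.52 ± 2.62 in iDOT1L (log2 fold change 2.59 ± 0.62 (adjusted p = 0.0309)), and COL4A5, a basement membrane collagen gene, 33.9 ± 13.6 in Combo and 6.90 ± 4.97 in iDOT1L (log2 fold change 2.31 ± 0.59 (adjusted p = 0.0421)); both lost the call in all fits without 1 library but that without iDOT1L 2. PERP, a desmosomal gene, averaged 35.5 ± 19 in Combo, with Combo 1 at 64.1 far above the other 3, and 7.00 ± 2.47 in iDOT1L (log2 fold change 2.13 ± 0.44 (adjusted p = 0.0136)), and lost the call without iDOT1L 1. ECI2, a fatty acid oxidation enzyme, averaged 90.9 ± 33.3 in Combo and 18.2 ± 5.10 in iDOT1L (log2 fold change 2.20 ± 0.44 (adjusted p = 0.0114)), but 27.4% of its 31-base words occur in other genes. The read-through transcript BLOC1S5-TXNDC5 was listed at 49.2, 63.7, 26.9 and 87.02 in Combo and at 0 in all 4 iDOT1L libraries, and shares 99.1% of its words with other genes, mostly TXNDC5, so that its counts cannot be assigned with certainty.

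Promoters of the risen genes were compared with those of other genes of like level, because PRC2 is known to act at CpG-rich promoters. RefSeq promoters (GRCh38.p14, 250 bases before to 50 bases after the start site) were matched for 12779 of the 16768 tested protein-coding genes. The share of promoters with a ratio of observed to expected CpG of at least 0.6 was 83.8% among 185 risen genes and 73.2% among 235 fallen genes, against 73.5% of all 12779. Among genes with 10 to 100 normalised counts in DMSO the share was 83.1% for 59 risen genes and 57.4% for all 2057 genes of that level. Among genes of at least 100 it was 87.2% for 109 risen genes, 75.3% for 223 fallen genes and 86.1% for all 8289. These are descriptions with no test.

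Promoters of 2 risen genes with many CpGs, of CYBB, a risen gene with 1 CpG, and of CCR1, a fallen gene with 3, show the range, printed on the strand of the gene with each CpG in capitals. POU4F1 lies on the minus strand at chr13:78603503-78603802 with 47 CpGs, MAN1A1 on the minus strand at chr6:119349712-119350011 with 47, CYBB on the plus strand at chrX:37779809-37780108, and CCR1 on the minus strand at chr3:46208264-46208563.
POU4F1: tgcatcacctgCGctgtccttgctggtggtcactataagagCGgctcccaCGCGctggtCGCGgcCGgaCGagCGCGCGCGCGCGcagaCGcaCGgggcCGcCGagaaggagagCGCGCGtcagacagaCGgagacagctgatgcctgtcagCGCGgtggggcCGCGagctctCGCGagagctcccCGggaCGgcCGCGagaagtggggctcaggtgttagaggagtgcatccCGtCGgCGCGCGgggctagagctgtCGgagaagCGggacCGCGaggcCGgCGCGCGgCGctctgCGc
MAN1A1: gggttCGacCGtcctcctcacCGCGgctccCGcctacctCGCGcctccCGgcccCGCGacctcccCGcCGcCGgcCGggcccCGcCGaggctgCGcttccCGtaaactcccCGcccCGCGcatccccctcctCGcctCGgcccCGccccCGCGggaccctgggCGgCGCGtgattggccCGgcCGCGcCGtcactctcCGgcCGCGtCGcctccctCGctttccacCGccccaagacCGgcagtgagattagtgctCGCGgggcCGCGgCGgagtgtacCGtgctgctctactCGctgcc
CYBB: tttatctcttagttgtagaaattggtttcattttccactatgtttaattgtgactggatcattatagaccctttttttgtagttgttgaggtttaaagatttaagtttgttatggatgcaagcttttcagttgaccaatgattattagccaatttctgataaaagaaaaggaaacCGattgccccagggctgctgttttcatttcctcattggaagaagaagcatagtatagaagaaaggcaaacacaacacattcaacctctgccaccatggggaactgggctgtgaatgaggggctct
CCR1: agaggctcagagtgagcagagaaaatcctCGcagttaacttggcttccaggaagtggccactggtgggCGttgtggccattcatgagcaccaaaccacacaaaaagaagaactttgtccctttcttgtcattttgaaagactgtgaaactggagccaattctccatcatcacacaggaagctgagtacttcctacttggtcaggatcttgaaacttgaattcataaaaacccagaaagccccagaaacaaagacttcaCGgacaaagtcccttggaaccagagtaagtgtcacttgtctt
The ratio of observed to expected CpG was 1.22 for POU4F1, 1.12 for MAN1A1, 0.0957 for CYBB and 0.195 for CCR1. Not every large rise had a CpG-rich promoter: the ratio was 0.41 for CYTL1, 0.46 for COL4A5 and 0.48 for TCEAL9.

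Genes of cholesterol synthesis formed the list with the largest share of falls. Of 21 enzymes, all tested, 9 fell and 0 rose, with a median log2 fold change of -0.50 and a negative sign in 19 of 21. Falls made up 42.9% of the list, against 1.48% of all genes tested, and at an unadjusted p under 0.05, 18 genes were lower and 0 higher, where 9.01% and 7.63% of all genes were. The summed level of the 21 genes was 27543 to 36028 in Combo and 36487 to 50304 in iDOT1L, which did not overlap. Among them were ACAT2, MVK, IDI1, FDFT1, LSS, CYP51A1 and DHCR7. The number of falls was 4 without Combo 3, iDOT1L 1 or iDOT1L 3, 5 without Combo 4 or iDOT1L 4, and 12 without iDOT1L 2; DHCR7, LSS, MVK and ACAT2 were called in every fit without 1 library.

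DHCR7, the reductase of the last step to cholesterol, stood at 1020, 947, 926 and 881 normalised counts in Combo, against 1906, 1449, 1574 and 1694 in iDOT1L. All Combo libraries lay below all iDOT1L libraries, with iDOT1L 1 the highest, and the log2 fold change was -0.81 ± 0.11 (adjusted p = 0.000618). LSS, which closes the sterol ring, had 1661, 1459, 1612 and 1785 in Combo and 3846, 2238, 3223 and 3192 in iDOT1L, a log2 fold change of -0.92 ± 0.15 (adjusted p = 0.00331). Mevalonate kinase, MVK, had 657, 512, 526 and 580.3 in Combo and 1029, 834, 964 and 968 in iDOT1L, a log2 fold change of -0.74 ± 0.14 (adjusted p = 0.0095). For these genes too Combo and iDOT1L did not overlap. HMGCS1, the synthase of an early step, had 3128, 1756, 2156 and 2309 in Combo and 5600, 2785, 4204 and 4345 in iDOT1L, which overlapped, and its log2 fold change of -0.84 ± 0.23 (adjusted p = 0.0707) did not pass. HMGCS1 passed without Combo 1, without iDOT1L 2, with a filter of a mean level of at least 10 and with the replicate number as a block (adjusted p = 1.53e-05). ACAT2 averaged 1705 ± 209 in Combo and 2597 ± 329 in iDOT1L, a log2 fold change of -0.61 ± 0.12 (adjusted p = 0.0101), with 50.3% of its words shared with other genes.

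Of 17 tested genes for sterol sensing and transport, 5 fell (29.4%, against 1.48% of all genes) and 0 rose (against 1.11%), with a median of -0.26. At an unadjusted p under 0.05, 6 were lower and 1 higher, beside 9.01% and 7.63% of all genes. SREBF2, the transcription factor that drives sterol synthesis genes, stood at 5781, 4729, 5446 and 5434 normalised counts in Combo and 9048, 6628, 7384 and 7633 in iDOT1L, a log2 fold change of -0.52 ± 0.11 (adjusted p = 0.0172). Every Combo library lay below every iDOT1L library, with iDOT1L 1 again the highest. The SREBF2 call was lost without iDOT1L 1 and with quantile normalisation. INSIG1, which retains the SREBP complex in the endoplasmic reticulum and is itself a target of SREBP, averaged 2280 ± 633 in Combo and 4556 ± 1070 in iDOT1L, a log2 fold change of -1.01 ± 0.21 (adjusted p = 0.0207). STARD4, a sterol carrier, and SREBF1 also fell, with log2 fold changes of -0.81 ± 0.17 (adjusted p = 0.0162) and -0.43 ± 0.10 (adjusted p = 0.0281). Without iDOT1L 1 this list had 1 fall, and without Combo 2, Combo 3, Combo 4 or iDOT1L 3 it had 3.

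The sterol regulatory element was searched as TCACNCCAC on both strands of the same promoters. It occurred in 1.62% of the risen, 2.13% of the fallen and 1.15% of all promoters, and in 0 of 16 promoters of the cholesterol list. The SREBF2 promoter, on the plus strand at chr22:41832855-41833154, held 1 match, which began 133 bases before the start site and is shown in capitals.
SREBF2: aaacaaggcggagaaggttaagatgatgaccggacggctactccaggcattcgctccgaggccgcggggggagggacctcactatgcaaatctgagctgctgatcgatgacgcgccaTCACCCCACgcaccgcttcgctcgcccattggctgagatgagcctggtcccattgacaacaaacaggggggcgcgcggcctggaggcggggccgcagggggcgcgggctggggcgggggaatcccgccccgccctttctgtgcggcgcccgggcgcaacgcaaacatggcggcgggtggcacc
The E-box CACGTG, searched likewise, occurred in 11.4% of the risen, 11.1% of the fallen and 9.38% of all promoters.

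Fatty acid desaturases fell with the sterol genes. Of 15 genes of fatty acid synthesis 3 fell and 1 rose, where 1.48% of all genes fell and 1.11% rose. FADS2, which starts the desaturation of polyunsaturated fatty acids, had 1824, 1053, 1243 and 1404 normalised counts in Combo, against 4819, 2513, 3826 and 3513 in iDOT1L. The log2 fold change was -1.40 ± 0.28 (adjusted p = 0.0161), and the call was lost without Combo 3 or iDOT1L 1. FADS1, its neighbour on chromosome 11 and the next desaturase, averaged 979 ± 96.7 in Combo and 1816 ± 306 in iDOT1L, a log2 fold change of -0.88 ± 0.15 (adjusted p = 0.00492). SCD, the stearoyl-CoA desaturase, had 18330, 14070, 15350 and 15710 in Combo and 40450, 22480, 29760 and 30770 in iDOT1L, a log2 fold change of -0.94 ± 0.17 (adjusted p = 0.00686). The gene that rose was ME1, the malic enzyme that makes NADPH, with 250.5 ± 36.5 in Combo, 154 ± 35.1 in iDOT1L and a log2 fold change of 0.71 ± 0.15 (adjusted p = 0.0163).

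Of 32 genes of glycolysis and the hypoxia response, 6 fell and 0 rose, with a median log2 fold change of -0.43 and a negative sign in 27. Falls made up 18.8% of the list and 1.48% of all genes, and rises 1.11% of all genes. At an unadjusted p under 0.05, 19 were lower and 0 higher, where 9.01% of all genes were lower and 7.63% higher. HK2, a hexokinase that starts glycolysis, had 2104, 2085, 1895 and 1719 normalised counts in Combo and 4386, 2651, 2927 and 2744 in iDOT1L, a log2 fold change of -0.68 ± 0.13 (adjusted p = 0.0105). LDHA, the lactate dehydrogenase subunit, averaged 17640 ± 2600 in Combo and 23540 ± 2400 in iDOT1L, a log2 fold change of -0.42 ± 0.10 (adjusted p = 0.0266), and the lactate exporter SLC16A3 fell with one of -0.45 ± 0.10 (adjusted p = 0.0251). VEGFA, an angiogenic factor induced by hypoxia, averaged 2933 ± 187 in Combo and 4368 ± 437 in iDOT1L, a log2 fold change of -0.57 ± 0.13 (adjusted p = 0.0218). PFKP and PGAM1, enzymes of the pathway's middle steps, fell with log2 fold changes of -0.34 ± 0.08 (adjusted p = 0.0311) and -0.30 ± 0.07 (adjusted p = 0.0367). This count varied more between fits than that of the other lists: it was 1 without Combo 3 or iDOT1L 1, 2 without Combo 4, iDOT1L 3 or iDOT1L 4, 3 without Combo 2 and 14 without Combo 1. HK2 was called in every fit without 1 library. VEGFA and SLC16A3 lost the call with quantile normalisation, and with the length and GC trend removed and no block. SLC16A3 and LDHA lost it when just the 8 libraries compared were fitted. HK2 kept the call in all these settings.

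Monocyte and macrophage genes fell more often than they rose. Of 50 listed genes 46 were tested, with a median log2 fold change of -0.18. Of these, 9 fell (19.6%, against 1.48% of all genes) and 1 rose (2.17%, against 1.11%). At an unadjusted p under 0.05, 14 were lower and 6 higher, where 9.01% and 7.63% of all genes were. Among the monocyte markers, MNDA lay higher, at 1058 to 1408 in Combo and 544 to 1013 in iDOT1L. ITGAX lay lower, at 46.0 to 84.5 in Combo and 104 to 187 in iDOT1L. EPZ5676 alone, in a comparison that shares the iDOT1L libraries, had 13 of them higher and 4 lower than DMSO, where 6.25% of all genes were called, 3.08% higher and 3.17% lower. With the replicate number as a block, that comparison had 16 higher and 7 lower, where 5.69% of all genes were higher and 6.53% lower. The chemokine receptor gene CCR1 had 271, 112, 167 and 159 normalised counts in Combo and 589, 342, 414 and 457 in iDOT1L, a log2 fold change of -1.38 ± 0.24 (adjusted p = 0.00453). IRF8, a transcription factor of the monocyte and dendritic lineage, had 7317, 9172, 8652 and 7153 in Combo and 10910, 11450, 11430 and 10120 in iDOT1L, a log2 fold change of -0.45 ± 0.08 (adjusted p = 0.00777). Both genes were called in every fit without 1 library. Other members that fell included NCF1, ITGAX, CX3CR1, MS4A6A, MS4A7 and FCGR1A. The number of falls was 4 without Combo 3, Combo 4, iDOT1L 1 or iDOT1L 3, and 5 without Combo 2 or iDOT1L 4.

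Among genes of the phagocyte NADPH oxidase, CYBB rose and NCF1 fell. CYBB, the catalytic membrane subunit, had 361, 279.6, 322 and 362 normalised counts in Combo and 136, 141, 164 and 122 in iDOT1L, a log2 fold change of 1.23 ± 0.23 (adjusted p = 0.00812). The groups did not overlap, and the call held in every fit without 1 library. NCF1, a cytosolic subunit, had 432, 156, 215 and 203 in Combo and 1047, 433, 579.9 and 715 in iDOT1L, a log2 fold change of -1.50 ± 0.36 (adjusted p = 0.0434), but shares 49.5% of its words with other genes, its copies among them. This call was lost in all fits without 1 library but those without Combo 1 or iDOT1L 2. The NCF1 call was also lost on the deposited log2 values, with quantile normalisation and when just the 8 libraries compared were fitted. It was kept with the replicate number as a block (adjusted p = 0.000114).

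Several classical monocyte genes, and the granule gene MPO, did not pass in the fit without a replicate block. LYZ, which encodes lysozyme, had 11730, 21830, 17380 and 12890 normalised counts in Combo and 7212, 12080, 8975 and 7933 in iDOT1L, a log2 fold change of 0.80 ± 0.22 (adjusted p = 0.0653), with 39.3% of its words shared. It passed without Combo 1, without iDOT1L 2 and with a filter of a mean level of at least 10. ITGAM, the integrin subunit of complement receptor CR3, had 251, 154, 216 and 254 in Combo and 609, 248, 436 and 369 in iDOT1L, a log2 fold change of -0.88 ± 0.34 (adjusted p = 0.196). With the replicate number as a block ITGAM was called lower (adjusted p = 0.0012). The log2 fold changes were -0.63 ± 0.37 (adjusted p = 0.415) for CSF1R, 0.72 ± 0.25 (adjusted p = 0.137) for TLR4, which passed when just the 8 libraries compared were fitted, -0.12 ± 0.25 (adjusted p = 0.859) for CCR2 and 0.06 ± 0.23 (adjusted p = 0.936) for MPO. CCR2 and MPO had risen with EPZ5676 alone, with log2 fold changes against DMSO of 3.05 (adjusted p = 1.58e-06) and 2.55 (adjusted p = 7.43e-06), and stood at about the same level in both groups here, MPO at 5237 ± 536 in Combo and 5031 ± 519 in iDOT1L.

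**Figure D3:**
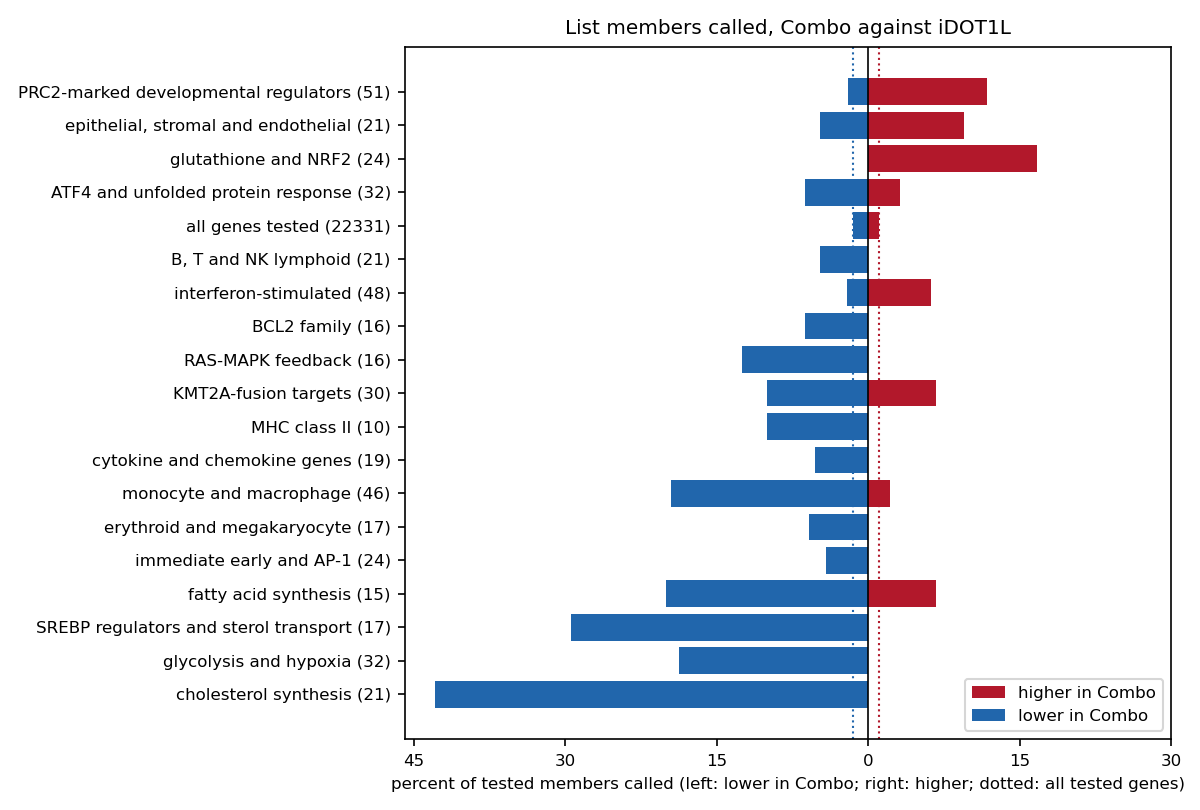
Percent of the tested members of each list called lower (left) and higher (right) in Combo against iDOT1L, with the number tested in brackets, for lists with at least 1 call; dotted lines mark 1.48% lower and 1.11% higher among all genes tested. Cholesterol synthesis has 9 of 21 members lower, and developmental regulators have 6 of 51 higher.

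Of 30 genes that KMT2A fusions are known to drive, 2 rose and 3 fell, beside 1.11% and 1.48% of all genes. FLT3, the receptor kinase gene that is mutated in this cell line, had 3988, 3289, 3339 and 3240 normalised counts in Combo, against 8122, 5149, 5553 and 5733 in iDOT1L. The groups did not overlap, iDOT1L 1 was the highest library, and the log2 fold change of -0.81 ± 0.14 (adjusted p = 0.00425) stayed between -0.88 and -0.66 in the fits without 1 library, all of which called it. MEF2C, a transcription factor gene of KMT2A leukaemia, had 1924, 1512, 1776 and 1769 in Combo and 3933, 2414, 2507 and 2468 in iDOT1L, a log2 fold change of -0.67 ± 0.17 (adjusted p = 0.0467). Its iDOT1L 1 value stood apart, and the call was lost in every fit without 1 library except that without iDOT1L 2. The MEF2C call was also lost on the deposited log2 values, after rescaling by a trimmed mean and with quantile normalisation. It was kept with the replicate number as a block (adjusted p = 0.0045). CPEB2, a regulator of translation, fell with a log2 fold change of -0.61 ± 0.14 (adjusted p = 0.0224). The list had 1 fall without Combo 3, Combo 4 or iDOT1L 1, and 1 rise without Combo 1, Combo 3, Combo 4, iDOT1L 1 or iDOT1L 3.

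HOXA7 rose, with 352, 335, 345 and 300.3 normalised counts in Combo and 217, 232, 229 and 197 in iDOT1L. The log2 fold change was 0.61 ± 0.11 (adjusted p = 0.00562), though 62.2% of its words are shared with other genes. EPZ5676 alone had lowered HOXA7 from 285.9 ± 30.4 in DMSO, with a log2 fold change of -0.38 (adjusted p = 0.0399). EYA1, a transcription coactivator gene, rose at a low level, averaging 12.9 ± 1.20 in Combo and 3.09 ± 0.463 in iDOT1L. HOXA9 and HOXA10, the central HOXA targets, had log2 fold changes of 0.12 ± 0.09 (adjusted p = 0.536) and 0.04 ± 0.11 (adjusted p = 0.899), with 24.3% and 24.5% of their words shared. Their cofactor genes MEIS1 and PBX3 had -0.27 ± 0.13 (adjusted p = 0.323) and 0.23 ± 0.14 (adjusted p = 0.43), and CDK6 had -0.17 ± 0.21 (adjusted p = 0.745). These 5 genes did not pass.

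Antioxidant genes were among the rises. Of 24 genes of glutathione metabolism and the NRF2 response 4 rose (16.7%, against 1.11% of all genes) and 0 fell (against 1.48%). At an unadjusted p under 0.05, 6 were higher and 1 lower, where 7.63% and 9.01% of all genes were. Those that rose were NQO1, SLC7A11, GSTP1 and ME1, the last already given. NQO1, a quinone reductase, had 539, 566, 591 and 555 normalised counts in Combo and 329.8, 410.5, 369.9 and 414 in iDOT1L, a log2 fold change of 0.57 ± 0.12 (adjusted p = 0.0155). SLC7A11, the cystine transporter, had 2043, 3293, 2671 and 2123 in Combo and 1231, 1594, 1401 and 992 in iDOT1L, a log2 fold change of 0.95 ± 0.23 (adjusted p = 0.0387). GSTP1, a glutathione transferase, averaged 3502 ± 361 in Combo and 2649 ± 187 in iDOT1L, a log2 fold change of 0.40 ± 0.10 (adjusted p = 0.0365). EPZ5676 alone had lowered ME1 and NQO1, with log2 fold changes against DMSO of -1.15 (adjusted p = 8.47e-05) and -0.46 (adjusted p = 0.0243). In DMSO, ME1 averaged 337.9 ± 30.8 and NQO1 523.5 ± 54. SLC7A11 had risen with EPZ5676 alone, by 1.65 (adjusted p = 0.000286), and GSTP1 had 0.30 (adjusted p = 0.0889, and 0.042 with the replicate block). The list's median was 0.08, and the number of rises was 0 without Combo 3, 1 without Combo 4, iDOT1L 1 or iDOT1L 3, and 2 without Combo 1.

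Of 48 interferon-stimulated genes 3 rose (6.25%, against 1.11% of all genes) and 1 fell (2.08%, against 1.48%), with a median of 0.00. OAS3, an antiviral oligoadenylate synthetase, had 73.6, 64.2, 66.9 and 90.1 normalised counts in Combo and 29.3, 45.2, 12.9 and 21.01 in iDOT1L, a log2 fold change of 1.53 ± 0.30 (adjusted p = 0.00986). HERC5, the ligase for ISG15, had 688, 619, 728 and 632 in Combo and 352, 435, 464 and 427 in iDOT1L, a log2 fold change of 0.67 ± 0.12 (adjusted p = 0.00562). EPZ5676 alone had lowered OAS3 from 83.3 ± 29.1 in DMSO, with a log2 fold change of -1.65 (adjusted p = 0.00179). It had raised HERC5, with 0.41 (adjusted p = 0.0484). IFIT5 rose with a log2 fold change of 0.52 ± 0.14 (adjusted p = 0.0444), a call that was lost in all 8 fits without 1 library, and IRF9, a subunit of the interferon-activated factor, fell with one of -0.73 ± 0.18 (adjusted p = 0.0357) and 50.3% of its words shared, a call that was kept in the fit without iDOT1L 2 and lost in the other 7.

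Other large falls were of single genes. TIFAB, a myeloid regulator of innate signalling, had 404, 597, 524 and 417 normalised counts in Combo and 1653, 1095, 1237 and 1089 in iDOT1L, a log2 fold change of -1.38 ± 0.16 (adjusted p = 0.000279), and shares 52.6% of its words with other genes, mostly DCANP1. C6orf223 had 323, 86.5, 166 and 180.2 in Combo and 1272, 476, 877 and 879 in iDOT1L, a log2 fold change of -2.27 ± 0.49 (adjusted p = 0.0267). RAP1GAP, which inactivates the small GTPase RAP1, averaged 61.6 ± 24.1 in Combo and 142 ± 24.8 in iDOT1L, a log2 fold change of -1.24 ± 0.23 (adjusted p = 0.00765). BCL2A1, an antiapoptotic BCL2 relative, averaged 14.3 ± 4.07 in Combo and 35.9 ± 10.4 in iDOT1L, a log2 fold change of -1.26 ± 0.27 (adjusted p = 0.0162). It was the sole one of 16 BCL2 family genes to be called (6.25%, where 1.48% of all genes fell). BCL2 itself had a log2 fold change of -0.24 ± 0.13 (adjusted p = 0.347). FGD2, SH2D3C, UPB1, TGM5, KIF17, PPFIA4, OLFML2A and KIAA1755 made up the rest of the 15 largest falls together with NCF1, FADS2 and CCR1, with log2 fold changes from -1.18 to -1.80 for these 8 genes. Of the 15, those that lost the call without iDOT1L 1 were C6orf223, KIAA1755, NCF1, FADS2, FGD2, UPB1, OLFML2A, BCL2A1 and SH2D3C.

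A few members were called in several other lists, where 1.11% of all genes tested rose and 1.48% fell. DUSP7, a phosphatase of MAP kinases, and IL1RAP, an interleukin-1 receptor subunit on leukaemic cells, were the 2 of 16 members of the list for RAS-MAPK feedback that fell, with log2 fold changes of -0.51 ± 0.11 (adjusted p = 0.022) and -0.57 ± 0.10 (adjusted p = 0.00383). IL1RAP counts here as a member of that list and not as a feedback regulator. JUND fell among 24 immediate early genes, with a log2 fold change of -0.51 ± 0.12 (adjusted p = 0.0237), and EGR1 had one of -0.26 ± 0.41 (adjusted p = 0.811). CIITA, the master activator of MHC class II genes, fell among 10 class II genes, with a log2 fold change of -0.73 ± 0.17 (adjusted p = 0.0297) and 26.2% of its words shared. Its call was lost without Combo 1, Combo 4, iDOT1L 1 or iDOT1L 3 and with the length and GC trend removed. CD74, the invariant chain, had one of -0.30 ± 0.13 (adjusted p = 0.243, and 0.0269 with the replicate block). EDEM1, which sorts misfolded glycoproteins for degradation, and VLDLR fell among 32 stress response genes. Their log2 fold changes were -0.83 ± 0.13 (adjusted p = 0.00291) and -0.48 ± 0.12 (adjusted p = 0.0334). The other called member of that list, SLC7A11, rose, with 0.95 ± 0.23 (adjusted p = 0.0387), and the list's median was 0.02. PECAM1, an adhesion molecule of endothelium and myeloid cells, fell with a log2 fold change of -0.69 ± 0.15 (adjusted p = 0.0215).

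In 13 lists limma called 0 members without the replicate block. These held granule proteins (16 tested), stem and progenitor genes (18), PRC2 subunits (13), DOT1L complex members (12), MHC class I genes (17), cytosolic ribosomal proteins (78), mitochondrially encoded messenger RNAs (13), ribosome biogenesis and MYC (31), DNA replication (39), mitosis (36), CDK inhibitors and D-type cyclins (12), p53 targets (25) and lysosomal genes (38). At an unadjusted p under 0.05, 61 of their 348 members (17.5%, against 7.63% of all genes) were higher and 16 (4.60%, against 9.01%) lower, a gene of several lists counting in each. Of these, 77 of 78 ribosomal protein genes and 13 of 13 mitochondrial messenger RNAs had positive signs, with medians of 0.16 and 0.44, and 15 and 9 of them had an unadjusted p under 0.05. Mitochondrial messenger RNAs summed to 597956 to 811834 normalised counts in Combo and 419288 to 656790 in iDOT1L, which overlapped. MYC had a log2 fold change of 0.21 ± 0.11 (adjusted p = 0.328, and 0.0482 with the replicate block), MYB -0.01 ± 0.09 (adjusted p = 0.98) and CDKN1A -0.05 ± 0.09 (adjusted p = 0.822). CDKN2A was at 0 to 2.44 in Combo and 0 to 2.26 in iDOT1L, too low for a difference to be detectable.

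The same inhibitor was also added without EPZ5676, in iEZH2 against DMSO, libraries that the comparison above does not share, though the fit pools the spread of all 16. There limma called 748 genes (3.35%), 290 higher (1.30%) and 458 lower (2.05%). The library iEZH2 4 stood apart from its group, at 10.6 on the first principal component against -19.3 to -6.66 for the other 3, and with MPO at 2288 against 872 to 941 and CCR2 at 539 against 192 to 255. Without it 192 genes were higher and 331 lower. Other libraries moved the counts as much: 187 were higher and 286 lower without iEZH2 3, 192 and 250 without DMSO 1, 166 and 243 without DMSO 3, and 179 and 260 without DMSO 4. Without iEZH2 2 there were 232 and 291, and without iEZH2 1 there were 354 and 692. The share of called genes with like signs in both comparisons was 96.0% without iEZH2 4. Of the 247 genes that rose in Combo, 241 (97.6%) had a positive sign in iEZH2 against DMSO, and of the 330 that fell, 320 (97.0%) had a negative one, against like signs in 66.9% of all genes tested. Called in both comparisons in one direction were 277 genes, which is 48.0% of the calls in Combo against iDOT1L and 37.0% of those in iEZH2 against DMSO. Across 13966 genes with a mean level of at least 20, Pearson's r of the 2 sets of log2 fold changes was 0.63, a description over genes that are not independent of each other. The plot of fold changes with and without EPZ5676 shows the called genes along the line of equal change.

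**Figure D4:**
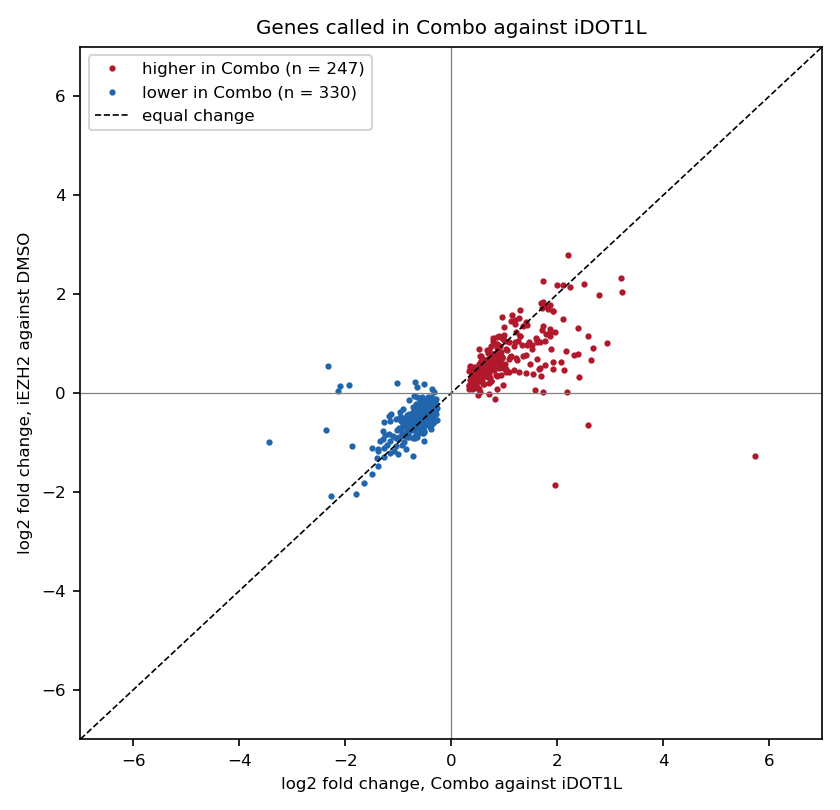
Log2 fold change in Combo against iDOT1L (horizontal) and in iEZH2 against DMSO (vertical) for the 247 genes higher and 330 genes lower in Combo; the dashed line marks equal change. Most genes lie in the quadrants of like sign, 241 of the risen and 320 of the fallen.

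Among named genes, TWIST1 rose in both comparisons by a like size, 2.11 in Combo against iDOT1L and 2.19 in iEZH2 against DMSO. The log2 fold changes, in the same order of comparisons, were -0.81 and -0.90 for DHCR7, -0.81 and -0.82 for FLT3, and -1.40 and -1.32 for FADS2. Of the 21 cholesterol genes, 17 fell in iEZH2 against DMSO, with a median of -0.65. For B4GALT6 the changes were 3.23 and 2.05, and for CYTL1 2.65 and 0.67 (adjusted p = 0.518). CYTL1 was at 6.499 on average in iDOT1L and 0 in DMSO. ME1 and NQO1, called here, had 0.19 (adjusted p = 0.592) and 0.25 (adjusted p = 0.323) in iEZH2 against DMSO.

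Whether the change differed with and without EPZ5676 was tested as the interaction of the 4 groups. limma called 0 of 22331 genes (0.0%); the lowest adjusted p was 0.0895, and 848 genes (3.80%) had an unadjusted p under 0.05. The standard error of an interaction was 0.19 on the log2 scale at the median gene of level 20 or more, against 0.13 for Combo against iDOT1L, so that differences between the responses smaller than several times 0.19 could not be detected. The median interaction was 0.22 for the 247 risen and -0.10 for the 330 fallen genes, and since these were chosen by their change in Combo against iDOT1L, that lean carries no test.

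Changed genes were mostly scattered along the genome. Of 211 risen genes with a tested neighbour within 100000 bases, 4 (1.90%) had a risen nearest neighbour, against 0.967% of all genes, and of 302 fallen genes 11 (3.64%) had a fallen one, against 1.58%. The risen neighbours were LUM with DCN, GRB7 with MIEN1, and SMIM10 with RTL8B. Fallen neighbours included FADS1 with FADS2, IDI1 with WDR37, and FURIN with FES, a protease gene and a myeloid tyrosine kinase gene whose ends lie 237 bases apart. FES averaged 1597 ± 119 normalised counts in Combo and 2795 ± 193 in iDOT1L, a log2 fold change of -0.81 ± 0.10 (adjusted p = 0.000469), and FURIN 1727 ± 51.4 in Combo and 2241 ± 256 in iDOT1L, a log2 fold change of -0.37 ± 0.09 (adjusted p = 0.0317). Where genes overlap, as FADS1 and FADS2 or MYO18A and TIAF1 do, shared reads cannot be told apart.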

How the data were processed

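Messenger RNA of Molm14 cells was sequenced in 16 libraries, 4 per group, grouped by the labels. The authors' table holds log2 values: reads were quantified with kallisto and processed with DESeq2 on hg38, per the submitters' processing notes, and the deposited values follow DESeq2's variance-stabilising transformation, with a shared lowest value for a count of 0. For tool versions, annotation and filters the sources used here give nothing. The transformation was inverted to normalised counts. Of low values, 67.2% to 70.3% per library lay within 0.1 read of a whole read, too few to treat them as counts, so the test was limma-trend (limma 3.58.1, R 4.3.3, robust) on log2(normalised count + 1), with which a fold change understates that of low genes. All 16 libraries and 4 group means entered 1 fit (12 residual degrees of freedom). Genes above 1 normalised count in at least 4 libraries were tested (22331), with Benjamini-Hochberg adjustment and a threshold of 0.05. The fit was checked on simulated data. Errors after ± are SD for levels and standard errors for log2 fold changes.

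Gene names came from GENCODE v29 for 20784 of 22445 IDs. A gene is called uncertain where over 20% of the 31-base words of its transcripts occur in other genes. Named genes were a fixed set, the 15 largest rises and falls among called protein-coding genes that averaged at least 20 in 1 group and did not overlap, and, from each list with at least 3 called members, up to 4 by lowest adjusted p. Other called list members, and the neighbours FES and FURIN, were named after their values were seen. The members and the 31 lists were chosen with earlier results of these data known, so the lists give no independent support. Some genes that these rules would name are not reported here. No library repeated another. Same-numbered Combo and iDOT1L libraries, and iEZH2 and DMSO libraries, were not treated as pairs, since their residual correlations were not all over 0.1 (see the last part on processing); those of iDOT1L and DMSO were, at 0.127 to 0.402, and the blocked counts stand beside the unblocked ones there. Alternatives covered pseudocount, value scale, filter, samples fitted, scaling, length and GC content, replicate block and each library left out.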

Additional observations from a re-analysis of the deposited data

Results flagged for a closer look

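Among the named genes, 15 of 186 groups of 4 libraries held 1 library whose gap to the nearest of the others, over the group's range, was above Dixon's 95% critical value for 4 samples. Chance flags about 1 in 20 groups. Combo 1 held 5 of them: DOT1L at 4235 (others 6328 to 6650), FLT3 at 3988 (3240 to 3339), LDHA at 21530 (16080 to 16510), PERP at 64.1 (25.7 to 26.4) and CD34 at 1.54 (9.02 to 10.1). Combo 2 held 4, with CDK6 at 7361 (4764 to 4938), VLDLR at 1033 (829 to 852), CYTL1 at 66.7 (35.5 to 36.7) and TWIST1 at 184.8 (271 to 287). Combo 4 was low for BHLHE22, at 25.4 (48.3 to 49.3).

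In iDOT1L, library 1 was high for MEF2C, at 3933 (others 2414 to 2507), and low for TWIST1, at 42.4 (63.5 to 64.5). Library 3 was high for CD34, at 27.1 (6.36 to 7.24). Library 4 was low for TLR4, at 224.2 (281.6 to 292), and high for CYTL1, at 12.3 (4.17 to 5.03). Of these genes, DOT1L, CDK6, CD34 and TLR4 were not called.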

How the results depend on the processing

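The direction of all 67 called named genes held in every alternative run; 51 of them stayed called in every alternative other than leaving out a library, and 37 in every fit without 1 library. Of 26 named genes that did not pass, 8 passed under some alternative. With the replicate block 6 of them did: EZH2 (adjusted p = 0.0307), HMGCS1 (1.53e-05), PAX6 (0.0172), ITGAM (0.0012), MYC (0.0482) and CD74 (0.0269); LYZ and TLR4 passed under others. The share of called genes with the same sign in iEZH2 against DMSO was 96.0% to 98.7% without single libraries, against 97.2%. Counts moved more. In Combo against iDOT1L, fits without 1 library called 122 to 236 genes higher and 77 to 342 lower, and list members numbered 10 to 21 higher and 15 to 50 lower, against 18 and 48. In iEZH2 against DMSO such fits called 166 to 354 higher and 243 to 692 lower, and the interaction 0 to 1 in each direction. With only the 8 libraries compared, iEZH2 against DMSO had 157 higher and 293 lower. Other pseudocounts, filters, scalings and the deposited log2 values kept the main counts within 1.5 times.

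Same-numbered Combo and iDOT1L libraries had residual correlations of 0.0364 to 0.36, all positive but not all over 0.1. Of 8 libraries, 5 correlated best with their own number. Same-numbered libraries were therefore not treated as pairs, and the labels do not say what the numbers mark. In iEZH2 and DMSO the correlations were 0.0807 to 0.456, in iDOT1L and DMSO 0.127 to 0.402 and in iDOT1L and iEZH2 0.122 to 0.526, over 0.1 in every pair of the last 2. With the replicate block, Combo against iDOT1L had 843 higher and 1397 lower, list members 91 and 116, and iEZH2 against DMSO 864 and 1316. With the length and GC trend removed and the block, these were 1000 and 1345, 100 and 118, and 1070 and 1519. In Combo against iDOT1L the block alone kept all 577 reported calls in their direction and raised the number of calls to 2240. The cause was not tested. Depth limits genes of few normalised counts, such as CDKN2A, and the depth of a single value can be given in estimated reads only.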
